A study of Mus musculus with 12 samples.

Results

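The genes of retinoic acid synthesis, binding and reception were examined in primary mouse skin fibroblasts that were stimulated with TGF-β2 or left unstimulated. The members were chosen by name, as 10 of the 21556 genes counted: Aldh1a1, Aldh1a2 and Aldh1a3, Dhrs3, Crabp1 and Crabp2, Rara, Rarb and Rarg, and Cyp26b1. Each had 1 row in the table. RNA was sequenced from fibroblasts of the abdominal skin of WT mice (strain C57BL/6) and of Nox4 KO mice (strain B6.129-Nox4tm1Kkr/J), which lack a working NADPH oxidase 4, an enzyme that makes hydrogen peroxide. All cells were starved for 24 h, then either received TGF-β2 at 10 ng/ml for 24 h or served as unstimulated controls. The 4 groups, WT control, WT with TGF-β2, Nox4 KO control and Nox4 KO with TGF-β2, held 3 libraries each. WT and KO mice descended from heterozygous crosses but were kept as separate litters, and the cells were expanded and frozen before use at passages that were not the same for all experiments. The series is described as 3 biological replicates, without stating that each came from another animal, so the p-values measure the spread between these libraries, which may in part be technical.

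Retinoic acid is a hormone-like derivative of vitamin A. Retinol is oxidised to retinaldehyde in a reversible step, and retinaldehyde is oxidised to retinoic acid by the retinaldehyde dehydrogenases in a step that is not reversed. The acid is carried in the cytoplasm by small binding proteins, acts in the nucleus through receptors that pair with retinoid X receptors on DNA, and is cleared by cytochromes of the CYP26 family. In skin it is known for its effects on epidermal differentiation, hair follicles and the matrix made by dermal fibroblasts.

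The libraries held between 35118344 and 43796260 counted reads. Levels are given as RPKM, reads scaled to the exon length of the gene and to the total of the library, which allows genes of different length to be compared. Fold changes come from edgeR's quasi-likelihood test on the counts, fitted over all genes with a mean of at least 1 RPKM in at least 1 of the groups compared, and p-values were adjusted over all of these genes. A gene was called at an adjusted p under 0.05 and a change of at least 2-fold. All 9 fibroblast markers were above 1 RPKM in every group, but with TGF-β2 Pdgfra was called lower in both genotypes (10.2-fold in WT and 7.89-fold in KO) and Col3a1 in WT (2.28-fold). The keratinocyte list summed to at most 0.920 RPKM in any library. Summed adipocyte markers, led by Lpl, ranged from 19.6 to 28.3 RPKM in WT control, 5.92 to 10.2 in WT with TGF-β2, 7.999 to 16.0 in KO control and 3.06 to 5.86 in KO with TGF-β2, and with TGF-β2 Lpl was called lower in both genotypes and Fabp4 in WT. Summed mesothelial markers, led by Krt19, ranged from 14.98 to 28.7 RPKM in controls and 9.20 to 18.1 with TGF-β2, and Krt19 was called lower in KO. Summed myeloid markers, led by Lyz2, varied within every group, from 12.6 to 113 RPKM over all libraries. No marker was at 0 in every library, but some had only a few reads, such as Dct with at most 1 and Cidec with at most 2. Adipoq, Plin1, Cidec and Lep of the adipocyte list were under 1 RPKM in every group. So were Upk3b, Lrrn4, Wt1 and Krt8 of the mesothelial list. What these lists contribute to the changes below was not tested. In bulk RNA, fewer cells of a type and less RNA per cell cannot be told apart. The stimulation was visible in every library through Ccn2, a connective tissue growth factor gene that TGF-β is known to induce, at 634 to 1194 RPKM in controls and 2123 to 3158 RPKM with TGF-β2. Acta2, the gene of the α-smooth muscle actin that marks myofibroblasts, overlapped between control and TGF-β2 in both genotypes. In WT it was at 5066 to 6016 RPKM in control and 5094 to 7853 with TGF-β2. KO libraries held 5772 to 6013 RPKM of it in control and 4366 to 6836 with TGF-β2. Nox4 itself was counted in all KO libraries, at 0.896 ± 0.435 RPKM in KO control against 1.74 ± 0.602 in WT control and at 5.26 ± 1.38 against 11.9 ± 3.97 with TGF-β2 (SD, n = 3). A total over the whole gene does not show whether the disrupted part was read, so it does not check the label.

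In WT cells TGF-β2 moved the pathway in both directions. Aldh1a3 and Crabp2 rose, while Aldh1a1, Dhrs3 and Cyp26b1 fell. Rara rose and Rarg fell by less than 2-fold. Of the 9 members tested, 2 were called higher, against 2.62% of the 10743 genes tested, and 3 were called lower, against 5.09%. At any fold 7 of the 9 passed, against 22.6% of all genes. In KO cells 1 of 9 members was called higher, against 2.22% of 10809 genes, and 2 lower, against 4.58%, and 5 passed at any fold, against 30.0%. The median log2 fold change of the tested members was -0.51 in WT and -0.69 in KO, beside a median over all genes tested of -0.00270 and -0.0144. With so few members each median is the value of a single gene, Aldh1a2 in WT, which did not pass, and Rarg in KO. As members moved in both directions, it does not describe a common fall. The members were proposed with results of these data known, so these counts are a description.

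**Figure D1:**
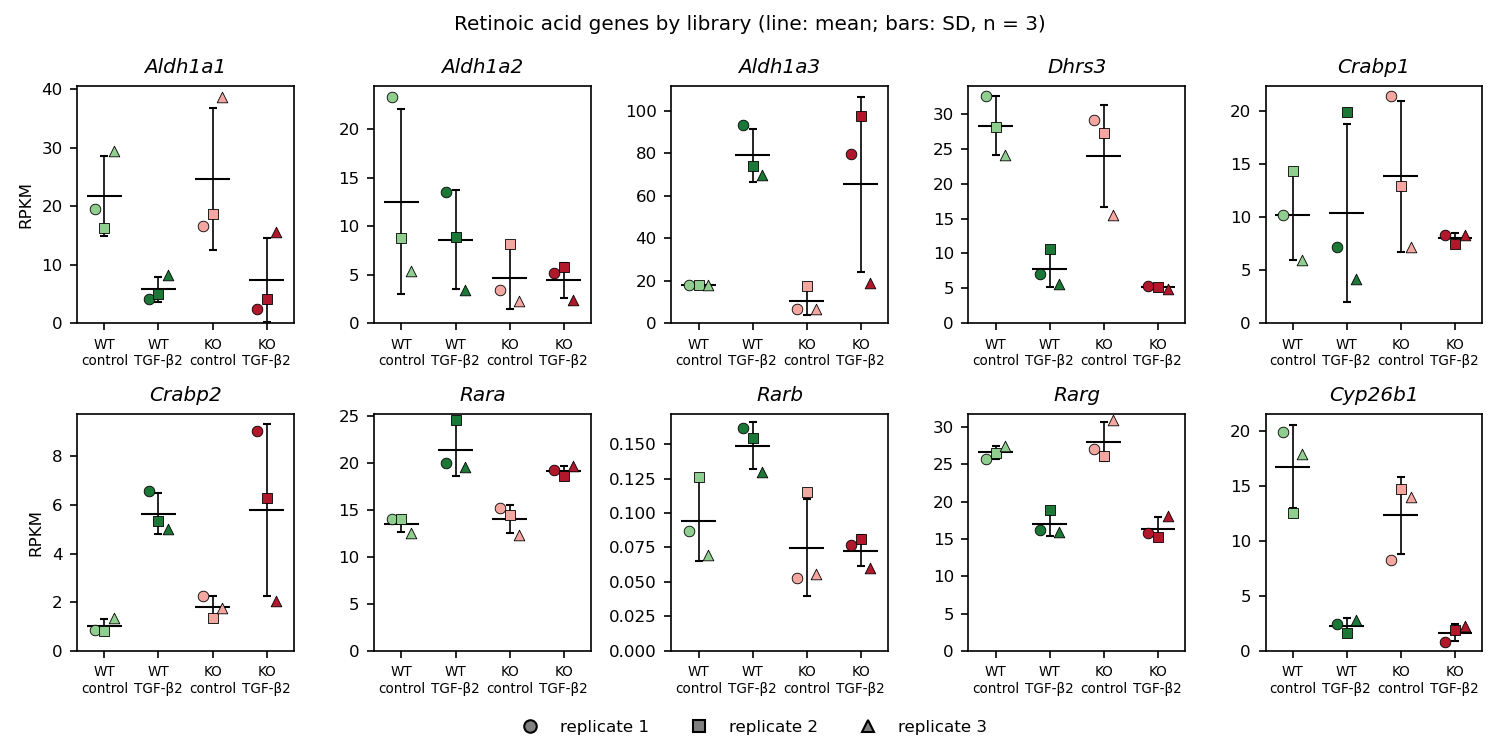
Level of each member in RPKM (vertical axis, a separate linear scale for each gene) in the 12 libraries, by group. Symbols mark replicate numbers, lines the group mean and bars the SD of 3 libraries. Aldh1a3 lay at 69.7 to 93.3 RPKM in WT with TGF-β2 against 17.8 to 18.1 in WT control, and the third KO library with TGF-β2 lay at 19.1.

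Aldh1a3, Aldh1a1 and Aldh1a2 encode the retinaldehyde dehydrogenases, the enzymes that make retinoic acid. Aldh1a3 (ENSMUSG00000015134, GRCm38 chromosome 7, 66390890 to 66427517, minus strand) was at 17.83, 17.98 and 18.08 RPKM in the WT control libraries and at 93.3, 74.3 and 69.7 RPKM in the WT libraries with TGF-β2. The WT groups did not overlap, and the 3 controls were almost equal. Its log2 fold change was 2.18 (SE 0.14), a 4.53-fold rise, with an edgeR adjusted p of 0.000423. In KO control it was at 6.42, 17.6 and 6.87 RPKM, and in KO with TGF-β2 at 79.5, 97.8 and 19.1 RPKM. The KO groups did not overlap either, but the second control library was above the other two and the third stimulated library was far below the others. Its log2 fold change in KO was 2.75 (SE 0.72) with an edgeR adjusted p of 0.0333. That call was lost without the first or the third KO control library (adjusted p 0.102 and 0.0884) and without the first or second KO library with TGF-β2 (adjusted p 0.0829 and 0.106), with log2 fold changes of 2.34 to 2.59 in these fits. Over all 6 fits that left out 1 library, its log2 fold change in KO ran from 2.34 to 3.41. In Ccn2 the third stimulated KO library held 2781 RPKM, the highest of the 3 stimulated KO libraries. Why its Aldh1a3 was low was not tested.

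Aldh1a1 (ENSMUSG00000053279, chromosome 19, 20492715 to 20643465, plus strand) moved the opposite way. It was at 19.6, 16.2 and 29.4 RPKM in WT control and at 4.17, 4.96 and 8.15 RPKM in WT with TGF-β2. The third library was highest in both WT groups, and the groups did not overlap. It fell by 1.87 on the log2 scale (SE 0.31), 3.66-fold, with an edgeR adjusted p of 0.00723. In KO it was at 16.6, 18.6 and 38.6 RPKM in control and at 2.47, 4.09 and 15.6 RPKM with TGF-β2, again highest in the third library of each group. The KO groups were also apart, yet the log2 fold change of -1.65 (SE 0.72) did not pass, with an edgeR adjusted p of 0.131. With the replicate number as a block, which the KO libraries allow because same-numbered control and stimulated libraries deviated together, its log2 fold change was -1.93 with an adjusted p of 0.00328. Without the third KO library with TGF-β2 it was -2.80 with an adjusted p of 0.0131.

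Aldh1a2 (ENSMUSG00000013584, chromosome 9, 71215789 to 71296243, plus strand) did not pass in any comparison. It was at 23.4, 8.78 and 5.41 RPKM in WT control, at 13.6, 8.85 and 3.39 in WT with TGF-β2, at 3.39, 8.19 and 2.31 in KO control and at 5.14, 5.75 and 2.39 in KO with TGF-β2. Between control and TGF-β2, the means of a genotype differed by less than the libraries within a group did. The log2 fold changes for TGF-β2 were -0.51 (SE 0.66) in WT and 0.01 (SE 0.55) in KO.

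The make-up of the 3 dehydrogenases therefore differed between control and stimulated libraries, a summary that was chosen after the values were seen and is given without a test. In WT control Aldh1a3 made up 35.1% ± 6.33 of their summed RPKM, Aldh1a1 41.8% ± 12.2 and Aldh1a2 23.0% ± 14.3 (SD, n = 3). In WT with TGF-β2 the Aldh1a3 share was 84.7% ± 0.944 and ranged only from 84.0% to 85.8%. In KO cells it was 26.1% ± 12.7 in control and 77.9% ± 22.8 with TGF-β2, with 51.5% in the third stimulated library and 90.9% and 91.3% in the others. The sum itself was 52.2 ± 8.96 RPKM in WT control and 93.5 ± 15.6 with TGF-β2, and 39.5 ± 11.5 and 77.3 ± 36.3 in KO. In WT the sums did not overlap between control and TGF-β2, while in KO the third stimulated library, at 37.1 RPKM, lay within the control range of 26.5 to 47.8.

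**Figure D2:**
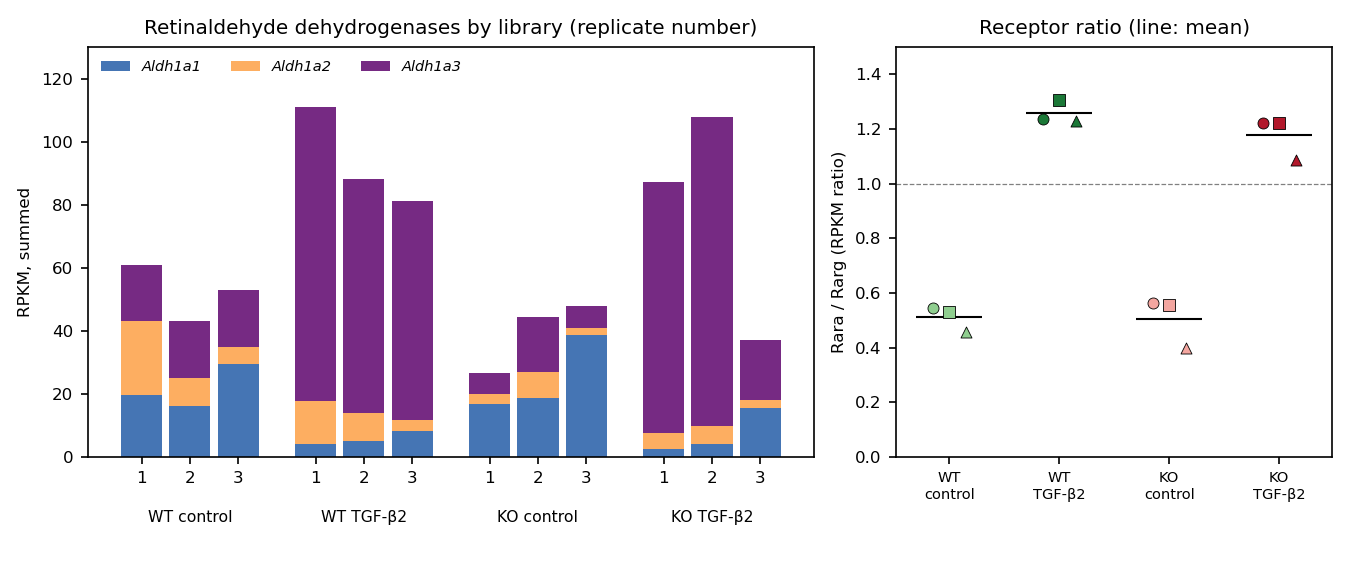
Left, summed RPKM of the 3 retinaldehyde dehydrogenases (bars, from 0, one for each library, coloured by gene) by group and replicate number. Right, the RPKM ratio of Rara to Rarg in each library with the group mean as a line, below 0.6 in all 6 controls and above 1 in all 6 stimulated libraries.

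Dhrs3 (ENSMUSG00000066026, chromosome 4, 144892827 to 144928209, plus strand) encodes a dehydrogenase that reduces retinaldehyde back to retinol and so holds down the supply for retinoic acid synthesis. It was at 32.7, 28.2 and 24.2 RPKM in WT control and 7.05, 10.6 and 5.58 RPKM in WT with TGF-β2. In KO control it was at 29.2, 27.2 and 15.6 RPKM, and in KO with TGF-β2 at 5.33, 5.16 and 4.87 RPKM. Control and stimulated libraries did not overlap in either genotype, and the stimulated KO libraries were close together. It fell by 1.84 on the log2 scale in WT (SE 0.25, edgeR adjusted p 0.00397) with a value of -2.15 in KO (SE 0.25, edgeR adjusted p 0.00426), 4.43-fold. These calls held without any single library.

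Cyp26b1 (ENSMUSG00000063415, chromosome 6, 84571414 to 84593908, minus strand) encodes an enzyme that oxidises and so clears retinoic acid. It was at 19.8, 12.5 and 17.9 RPKM in WT control and 2.48, 1.58 and 2.83 RPKM in WT with TGF-β2. In KO control it was at 8.29, 14.7 and 14.0 RPKM, and in KO with TGF-β2 at 0.780, 1.91 and 2.22 RPKM. Every stimulated library was below every control library of either genotype. Of the members, it had the largest fall in both genotypes, by 2.82 on the log2 scale in WT (SE 0.28, edgeR adjusted p 0.00137) with a value of -2.83 in KO (SE 0.43, edgeR adjusted p 0.00750), about 7.09-fold in WT and 7.10-fold in KO. The ratio of Aldh1a3 to Cyp26b1 RPKM within a library, a description chosen after the values were seen, was 0.899 to 1.44 in WT control and 24.7 to 47.2 in WT with TGF-β2, and 0.492 to 1.19 and 8.62 to 102 in KO. The other 2 genes of the family, Cyp26a1 and Cyp26c1, had at most 2 counts and 1 count in any library, so Cyp26b1 was the only one of the family that was measured above 1 RPKM.

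Crabp2 and Crabp1 encode the cellular retinoic acid binding proteins. CRABP2 is known to hand retinoic acid to its receptors. Crabp2 (ENSMUSG00000004885, chromosome 3, 87948666 to 87953376, plus strand) was at 0.856, 0.817 and 1.33 RPKM in WT control, from 28 to 50 reads, and at 6.59, 5.32 and 4.99 RPKM in WT with TGF-β2. Its log2 fold change of 2.53 (SE 0.25), 5.78-fold, was the largest rise among the members in WT, with an edgeR adjusted p of 0.00137. In KO control it was at 2.27, 1.34 and 1.74 RPKM, and in KO with TGF-β2 at 9.04, 6.30 and 2.04 RPKM. The third stimulated KO library lay within the control range, and the log2 fold change of 1.79 (SE 0.55) did not pass, with an edgeR adjusted p of 0.0530. It was called with the replicate block (log2 fold change 1.68, adjusted p 0.0147), by DESeq2 (1.79, adjusted p 0.00632), with all 12 libraries in the fit (1.82, adjusted p 0.0125) and without that library (2.19, adjusted p 0.00683).

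Crabp1 (ENSMUSG00000032291, chromosome 9, 54764748 to 54773110, plus strand) varied widely between libraries in every group except KO with TGF-β2, where the libraries were close together. It was at 10.2, 14.4 and 5.97 RPKM in WT control, at 7.16, 20.0 and 4.12 in WT with TGF-β2, at 21.4, 13.0 and 7.20 in KO control and at 8.31, 7.52 and 8.34 in KO with TGF-β2. The log2 fold change for TGF-β2 was 0.05 (SE 0.59) in WT and -0.70 (SE 0.38, edgeR adjusted p 0.204) in KO. Without the third KO control library it was called lower in KO (log2 fold change -1.02, adjusted p 0.0323). In WT control Crabp1 stood above Crabp2 in every library, with a Crabp2 to Crabp1 RPKM ratio of 0.0568 to 0.223, while in WT with TGF-β2 the ratio ranged from 0.267 to 1.21.

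The receptors for retinoic acid are the transcription factors RARα, RARβ and RARγ. Rara (ENSMUSG00000037992, chromosome 11, 98927818 to 98974942, plus strand) was at 14.0, 14.1 and 12.6 RPKM in WT control and 20.0, 24.7 and 19.6 RPKM in WT with TGF-β2. In KO it was at 15.2, 14.5 and 12.3 RPKM in control and at 19.2, 18.6 and 19.7 RPKM with TGF-β2. It rose 1.62-fold in WT (log2 fold change 0.70, SE 0.12, edgeR adjusted p 0.00838) and 1.45-fold in KO (0.54, SE 0.10, adjusted p 0.0116).

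Rarg (ENSMUSG00000001288, chromosome 15, 102234938 to 102257517, minus strand), the RAR that is known as the main one of skin, was at 25.8, 26.6 and 27.5 RPKM in WT control and 16.2, 18.9 and 16.0 RPKM in WT with TGF-β2. In KO it was at 27.1, 26.1 and 31.0 RPKM in control and at 15.7, 15.3 and 18.1 RPKM with TGF-β2. It fell 1.52-fold in WT (log2 fold change -0.61, SE 0.09, edgeR adjusted p 0.00506) and 1.61-fold in KO (-0.69, SE 0.09, adjusted p 0.00496). Both receptor genes changed by less than 2-fold, passed without any single library, and had control and stimulated libraries that did not overlap. How many of all genes did not overlap between control and TGF-β2 was not counted. By edgeR, 37.7% of all genes in WT and 43.8% in KO had an unadjusted p under 0.05 for TGF-β2.

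As Rara rose and Rarg fell, their order was exchanged. The ratio of Rara to Rarg RPKM within a library, also chosen after the values were seen, was 0.458 to 0.545 in WT control and 1.23 to 1.31 in WT with TGF-β2, and 0.398 to 0.562 and 1.09 to 1.22 in KO. The sum over the 3 receptors was 40.3 ± 0.471 RPKM in WT control and 38.6 ± 4.44 with TGF-β2, where the ranges overlapped, and 42.1 ± 1.33 and 35.6 ± 2.03 in KO (SD, n = 3), where they did not.

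Rarb (ENSMUSG00000017491, chromosome 14, 16430839 to 16819156, minus strand) was hardly detected, with 8 to 26 reads in a library. It was at 0.0867, 0.126 and 0.0692 RPKM in WT control, at 0.162, 0.155 and 0.130 in WT with TGF-β2, at 0.0531, 0.116 and 0.0559 in KO control and at 0.0769, 0.0811 and 0.0602 in KO with TGF-β2. Being under 1 RPKM in every group, it was not part of the fits. A two-sided exact permutation test of log2(CPM + 0.5), which cannot give a p under 0.1 with 3 against 3 libraries, gave a difference of 0.32 in WT (p = 0.1) and -0.00252 in KO (p = 1) for TGF-β2. For KO against WT the difference was -0.14 in control (p = 0.5) and -0.46 with TGF-β2 (exact permutation p = 0.1), and none of the 4 adjusted p-values, 0.2 at the lowest, passed. On this scale a pseudocount understates the change of so low a gene. When the limit of 1 RPKM was replaced by edgeR's filterByExpr, Rarb entered the fit and its log2 fold change was 0.73 (SE 0.33, adjusted p 0.160) for TGF-β2 in WT, 0.06 (SE 0.42) in KO, -0.35 (SE 0.46) for KO against WT in control and -1.01 (SE 0.31, p 0.0132, edgeR adjusted p 0.863) after TGF-β2. Exons of Rarb overlap those of Top2b and Gm48162 on the other strand over 2020 bp, 51.3% of its counted length, and whether the counting used the strand was not stated, so even these reads are uncertain. The other 9 members share no exon with another gene.

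Rarb is known as a direct target of retinoic acid through an element next to its start site, which is why that element is shown. Promoters of 250 bases before to 50 bases after each start site came from RefSeq (GRCm38.p6), where 8 of the 10 members were matched, by 15 promoters in all. Aldh1a3 and Crabp2 were not among them. A direct repeat of the retinoic acid receptor site with a spacer of 5 bases (DR5) was searched on both strands and stood in 0.0974% of the 32851 promoters, among the members only in Rarb, 53 to 37 bases before the start site (chr14:16575513-16575529, minus strand), a stretch that GENCODE places inside the exon of other Rarb transcripts. Its repeats are in capitals.
Rarb DR5 element: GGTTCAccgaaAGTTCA
The same repeat with a spacer of 2 bases (DR2), held by 0.268% of all promoters, was in no member's promoter. The sequence AGGTCA, a single copy of the receptor site searched on both strands and also able to lie within either repeat, was in 16.3% of all promoters, and here in those of Rara and Rarg.

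For the 2 members with a matched promoter that fell most among synthesis and retinaldehyde reduction, the 120 bases before the RefSeq start site are given. That of Aldh1a1 (chr19:20492463-20492582, plus strand) holds the AP-1 motif TGANTCA, in capitals, at 57 to 51 bases before the RefSeq start. The GENCODE start of Aldh1a1, 20492715, lies further downstream. This motif, which reads the same on both strands, was in 7.81% of all promoters and in no other member's. The stretch of Dhrs3 (chr4:144892707-144892826, plus strand), with a GC content of 65.8% against 43.3% for Aldh1a1, held none of the motifs searched, which included the SMAD palindrome GTCTAGAC, found in 0.213% of all promoters and in no member's. A match describes letters and not a bound site.
Aldh1a1: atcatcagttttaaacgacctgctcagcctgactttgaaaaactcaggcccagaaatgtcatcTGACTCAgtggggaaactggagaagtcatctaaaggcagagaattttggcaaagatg
Dhrs3: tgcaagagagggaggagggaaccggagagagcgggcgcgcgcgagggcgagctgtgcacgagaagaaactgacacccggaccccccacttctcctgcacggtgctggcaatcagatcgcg

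The order of the levels changed with stimulation. In WT control, by mean RPKM, Dhrs3 at 28.3 was followed by Rarg at 26.6, Aldh1a1 at 21.7, Aldh1a3 at 17.96, Cyp26b1 at 16.7, Rara at 13.6, Aldh1a2 at 12.5 and Crabp1 at 10.2. Each of these overlapped the next in its libraries, so neighbours in this order did not differ beyond their spread, while Crabp2 at 1.00 and Rarb at 0.0941 stood apart. In WT with TGF-β2 Aldh1a3 came first at 79.1 RPKM, followed by Rara at 21.4 and Rarg at 17.0, and the libraries of these 3 genes did not overlap. Crabp1, whose libraries overlapped those of Rarg, Aldh1a2, Dhrs3, Aldh1a1 and Crabp2 followed between 10.4 and 5.64 RPKM with overlapping libraries, and Cyp26b1 at 2.29 RPKM was below them.

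**Figure D3:**
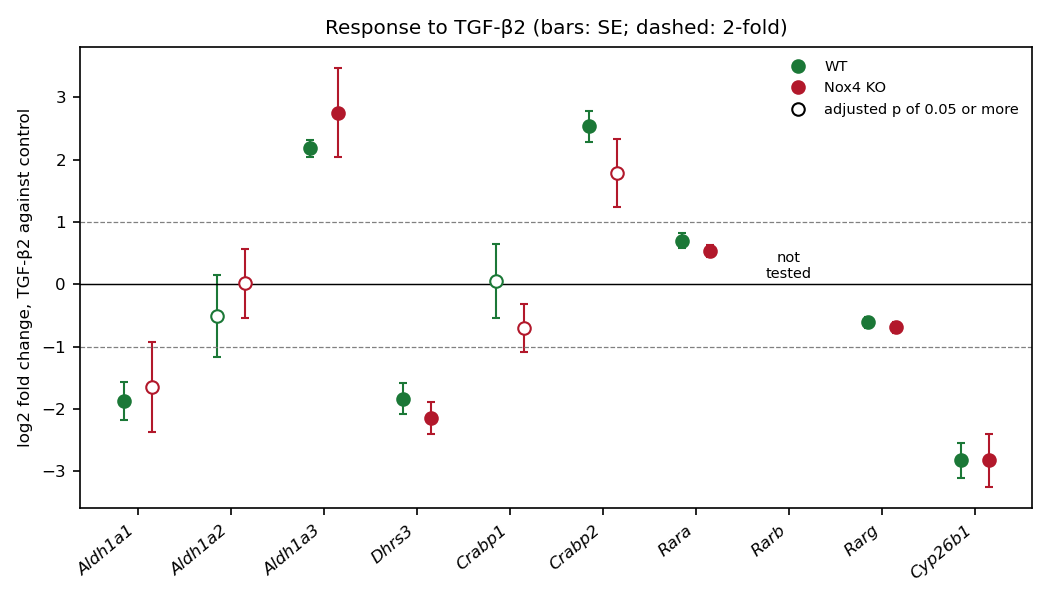
Log2 fold change with TGF-β2 against control (vertical axis) of the members in WT and Nox4 KO, with bars for the SE of 6 libraries each, dashed lines at 2-fold and open symbols for an adjusted p of 0.05 or more. Cyp26b1 was at -2.82 in WT and -2.83 in KO, and Rarb was not tested.

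Whether the response differed between genotypes was tested as the interaction of genotype and TGF-β2 over all 12 libraries. By edgeR 0 of 9 members passed, as did 0% of all 10890 genes tested, and at an unadjusted p under 0.05 the count was again 0 of 9, beside 2.68% of all genes. With DESeq2 0 members and 6 genes in all passed at any fold, 2 of these genes by at least 2-fold. The largest estimates, as the log2 fold change in KO minus that in WT, were -0.73 for Crabp1 (SE 0.77), -0.73 for Crabp2 (SE 0.63), 0.58 for Aldh1a3 (SE 0.74) and 0.53 for Aldh1a2 (SE 0.95). That of Cyp26b1 was 0.01 (SE 0.53) and that of Rarg -0.07 (SE 0.12). With errors of this size, differences of 2-fold in the dehydrogenases and binding proteins were not detectable, while the receptor estimates were known to within narrower errors. Aldh1a1 and Crabp2, which passed in WT and not in KO, are thus not shown to respond differently, with interaction adjusted p-values of 0.957 and 0.854 by edgeR.

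Between genotypes without stimulation, edgeR called 0 of 9 members and 0% of 10767 genes, while DESeq2 passed 0 members and 28 genes at any fold. At an unadjusted p under 0.05 the count was 1 of 9 members, against 5.54% of all genes. This was Crabp2, at 1.34 to 2.27 RPKM in KO and 0.817 to 1.33 in WT (log2 fold change 0.79, SE 0.29, p 0.0320, edgeR adjusted p 0.828). The libraries of 2 members, Crabp2 and Aldh1a3, did not overlap between genotypes, against 13.6% of all genes. Aldh1a3 was lower in all 3 KO controls, at 6.42 to 17.6 RPKM against 17.8 to 18.1, but its log2 fold change of -0.84 (SE 0.40) did not pass, with an edgeR adjusted p of 0.828. Without the second KO control library it was called (log2 fold change -1.48, adjusted p 0.0230), as the only member in any of the fits that left out 1 library. Aldh1a3 lies on the chromosome of Nox4, 20.8 Mb away, and the strain name gives 129 as the donor of the disrupted allele, so that any 129 sequence kept around it and the lack of Nox4 cannot be told apart in these lines. Aldh1a2 had the lowest estimate, -1.48 (SE 0.69, edgeR adjusted p 0.828), with overlapping libraries. Without 1 library it ran from -2.19 to -0.63.

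After TGF-β2, edgeR again called 0 of 9 members and 0% of 10439 genes, with 16 genes and 0 members by DESeq2 at any fold. At an unadjusted p under 0.05 the count was 1 of 9, against 3.23% of all genes, and the libraries of 1 tested member did not overlap, against 10.1%. Both were Dhrs3, at 4.87 to 5.33 RPKM in KO and 5.58 to 10.6 in WT (log2 fold change -0.57, SE 0.22, p 0.0354, edgeR adjusted p 0.838). Aldh1a3, at 19.1 to 97.8 RPKM in KO and 69.7 to 93.3 in WT, differed by -0.25 (SE 0.53), and Rara and Rarg by -0.13 (SE 0.10) and -0.03 (SE 0.10). The comparisons share libraries, so the estimates are not independent of those for TGF-β2.

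The steps before retinoic acid synthesis were read from a list of 19 genes of retinol transport, storage and oxidation, of which 12 were tested. In WT 0 were called higher and 2 lower at 2-fold by edgeR, and the same numbers were called in KO, with medians of -0.15 and -0.33 on the log2 scale. Over all genes 5.09% in WT and 4.58% in KO were called lower. At an unadjusted p under 0.05 there were 7 of 12 in WT, against 37.7% of all genes, and 8 of 12 in KO, against 43.8%. At any fold, WT had 3 that passed higher and 4 that passed lower, while KO had 2 and 5. Adh1, an alcohol dehydrogenase that can oxidise retinol, had the largest fall of the list, from 5.23 ± 1.96 to 0.280 ± 0.142 RPKM in WT (SD, n = 3). It fell by 4.18 on the log2 scale in WT (SE 0.43, edgeR adjusted p 0.00157) with a log2 fold change of -4.27 in KO (SE 0.40, edgeR adjusted p 0.00267). Adh7, an alcohol dehydrogenase with high activity on retinol, had log2 fold changes of -2.05 in WT (edgeR adjusted p 0.00438) and -1.86 in KO (adjusted p 0.00146). Rdh10, the main retinol dehydrogenase of development and named here after its values were seen, fell by less than 2-fold in WT (log2 fold change -0.51, edgeR adjusted p 0.0110) and did not pass in KO (-0.36, adjusted p 0.146). The genes that passed higher, also named after their values were seen, were the retinol dehydrogenases Rdh5 (0.81 in WT and 0.88 in KO, edgeR adjusted p 0.0357 and 0.0497) and Rdh13 (0.44 and 0.34, adjusted p 0.0236 and 0.0118), and in WT the aldo-keto reductase Akr1b8 (0.55, adjusted p 0.0154).

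Of 12 genes for RXR partners and coregulators 11 were tested, and 0 were called in WT and 0 in KO by edgeR at 2-fold. At an unadjusted p under 0.05 there were 5 of 11 in WT, against 37.7% of all genes, and 5 of 11 in KO, against 43.8%. At any fold 1 of 11 in WT and 2 of 11 in KO passed the adjusted limit, shares below the 22.6% and 30.0% of all genes. Rxra, the partner of the receptors and named after its values were seen, passed in both, from 19.4 ± 2.01 to 12.0 ± 1.18 RPKM in WT (log2 fold change -0.64, edgeR adjusted p 0.00938) and by -0.48 in KO (adjusted p 0.0372). Between unstimulated KO and WT 0 of the 11 passed, and 5 of 11 had an unadjusted p under 0.05, against 5.54% of all genes, with a median log2 fold change of -0.15, beside 0.00172 for all genes.

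A list of 15 genes known to be induced by retinoic acid held 9 that were tested. In each genotype 1 was called higher and 1 lower, with medians of 0.0211 in WT and 0.12 in KO. Over all genes 2.62% were called higher and 5.09% lower in WT, and 2.22% and 4.58% in KO. The gene called higher was Tgm2, a transglutaminase that crosslinks proteins, at 62.7 ± 17.8 RPKM in WT control and 183 ± 20.2 with TGF-β2 (log2 fold change 1.58 in WT and 1.26 in KO, edgeR adjusted p 0.00437 and 0.0332). The gene called lower was Rarres1, a retinoic acid receptor responder, which fell by 2.24 on the log2 scale in WT (edgeR adjusted p 0.00462) with a value of -2.58 in KO (adjusted p 0.00871). The list of other degrading enzymes and carriers had 1 of 3 genes tested and 0 called by edgeR, with 0 at an unadjusted p under 0.05. That gene, Fabp5, which also binds retinoic acid, was at 29.1 to 43.8 RPKM in WT control and 28.5 to 68.7 with TGF-β2.

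**Figure D4:**
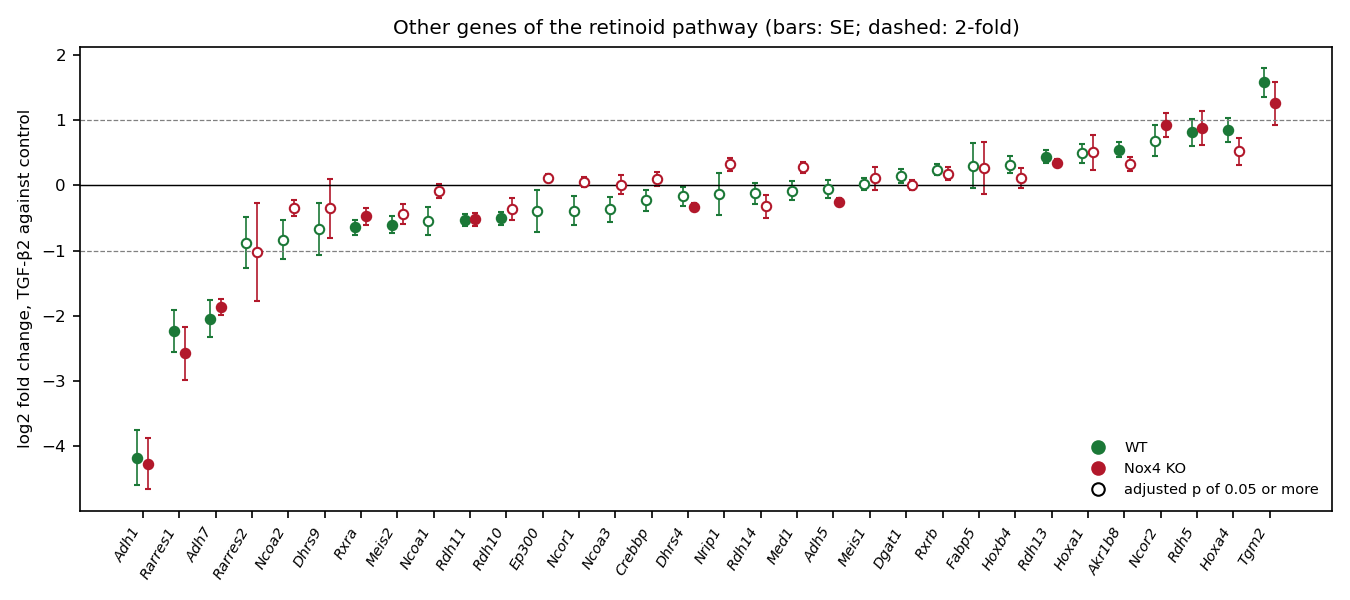
Log2 fold change with TGF-β2 against control (vertical axis) of the 32 tested genes of the other retinoid lists in WT and Nox4 KO, ordered by the value in WT, with bars for the SE, dashed lines at 2-fold and open symbols for an adjusted p of 0.05 or more. Adh1 had the lowest value, -4.18 in WT, and Tgm2 the highest, 1.58.

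The genes most like the 3 members with the smallest p in WT were found by Pearson correlation of log2(CPM + 0.5) over the 12 libraries among 10889 genes. As all 12 libraries share the contrast of stimulated and control cells, many genes reach a high value, and no p is given. For Aldh1a3 they were Cmklr1 (r = 0.983), Vegfa (0.976) and Wnt11 (0.969). For Cyp26b1 they included Stc1 (0.982) and Cds2 (0.980), and for Crabp2 they were Galnt14 (0.952), Fgf21 (0.950) and Havcr2 (0.950).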

How the data were processed

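RNA was measured by single-end sequencing in 12 libraries, grouped by the sample labels. The authors aligned the reads to GRCm38 (STAR), kept those with a single location, and used featureCounts to count them over the protein-coding exons of each gene. The submitters' processing notes name CASAVA 1.8.2, STAR 2.4 and featureCounts 1.4.6. The deposited values are these raw counts per gene, without normalization or filter, and all columns were used. The 21556 genes were matched by identifier to GENCODE for GRCm38, which gave symbol, position and merged exon length, from protein-coding transcripts for 21099. RPKM divided each count by this length and by the total of its library. Totals between 35118344 and 43796260 limit precision at low counts, and such limits cover counting error only.

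Each comparison was fitted on its own 6 libraries with R 4.3.3 and edgeR 4.0.16 (quasi-likelihood test, TMM, Benjamini-Hochberg adjustment over genes with a mean of at least 1 RPKM in 1 of the groups, library sizes over those genes). Calls needed an adjusted p under 0.05 and 2-fold. The SE came from the F statistic. The members, lists and tests were chosen with earlier results of these data known. Members were named, with list genes called in a comparison, and others only where stated. Some genes of the lists are not reported here. Alternatives were DESeq2 1.42.0, library-size and upper-quartile factors, filterByExpr, no filter, all 12 libraries, a replicate block, no fold limit, another pseudocount, and leaving out each library. Deviations from the group mean went together in KO control and KO stimulated libraries of the same number (r = 0.771, 0.685 and 0.748), so the number was taken to pair them, a pairing that comes from this check and not from the labels. The procedure was tested on simulated counts that had the same relative spread for every gene and no paired or outlying libraries. That test does not show how it does with replicates as uneven as these.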

Additional observations from a re-analysis of the deposited data

How the results depend on the processing

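The 5 calls in WT held under all alternatives that kept the fold limit, and without it 7 members passed. In KO the count of 3 became 5 with the replicate block, which added Aldh1a1 and Crabp2, and 5 with no fold limit, which added Rara and Rarg. Leaving out 1 library gave 2 to 5 calls in KO and 0 to 1 between unstimulated genotypes. Dhrs3 and Cyp26b1 were called in every fit of TGF-β2 against control. The block moved the count of all genes that passed in KO at any fold from 3243 to 5842. In WT and between genotypes the numbers are only shared: same-numbered correlations ran from 0.0731 to 0.532 in WT, where 5 of 6 libraries fitted best with their own number, and the block gave 3080 in place of 2425 genes. The block changed no other member's call.

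Only members that had not passed changed direction. With the block the log2 fold change was -0.13 for Crabp1 in WT, -0.14 for Crabp2 between genotypes after TGF-β2, and -0.0628 for Aldh1a1 and -0.0434 for Cyp26b1 in the interaction. Aldh1a2 in KO was -0.0688 with library sizes and -0.0516 with upper-quartile factors. The interaction of Cyp26b1 was -0.000779 by DESeq2, -0.0449 with library sizes, -0.0340 with upper-quartile factors, -0.00185 with filterByExpr and -0.0134 without a filter. Without 1 library, values ran for TGF-β2 in WT from -1.05 to 0.32 for Aldh1a2 and from -0.80 to 0.43 for Crabp1, and in KO from -0.31 to 0.73 for Aldh1a2. For KO against WT in control they ran from -0.32 to 0.39 for Aldh1a1, -0.0561 to 0.75 for Crabp1, -0.0641 to 0.10 for Rara and -0.0269 to 0.0754 for Rarg. After TGF-β2 they ran from -0.78 to 0.79 for Aldh1a1, -0.66 to 0.19 for Aldh1a3, -0.70 to 0.50 for Crabp1, -0.42 to 0.47 for Crabp2 and -0.10 to 0.0202 for Rarg. In the interaction they ran from -0.92 to 0.68 for Aldh1a1, -0.31 to 1.25 for Aldh1a2, -1.11 to 0.0927 for Crabp1 and -0.27 to 0.34 for Cyp26b1. Without a change of direction, interaction values ran from 0.17 to 1.23 for Aldh1a3 and from -1.20 to -0.33 for Crabp2. The cause was not tested. Depth limits Rarb, with 8 to 26 reads, and Crabp2 in WT control, with 28 to 50.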
